A study of Brassica juncea with 4 samples.

Results

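miR165 and miR166 are related plant microRNAs (miRNAs) that cut the transcripts of the class III homeodomain-leucine zipper (HD-ZIP III) transcription factors. They were chosen here as every entry of the miRNA table named for miR165 or miR166, of either arm and any species prefix, together with the genes that the degradome tables list as cut by these entries. There were 15 such entries of 288, which came to 8 distinct sequences of 248 once identical sequences were joined. Reads of 7 of the 8 were seen in CMS buds and of all 8 in MF buds. These miRNAs were named in 70 of the 768 rows of the CMS degradome and in 70 of the 838 rows of the MF degradome, which pointed to 5 genes of the 446 listed. The 5 genes were REVOLUTA (REV), PHABULOSA (PHB), PHAVOLUTA (PHV), CORONA (CNA) and ATHB8, which are all the HD-ZIP III genes of Arabidopsis.

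The samples were floral buds of a cytoplasmic male-sterile (CMS) line of Brassica juncea and of its maintainer fertile (MF) line, taken from plants that flowered in long days. The CMS line carries a sterility-causing cytoplasm that came from B. rapa and a nucleus from repeated backcrossing to fertile B. juncea, and the MF line is that fertile, selfed recurrent parent. Whole sets of buds from an inflorescence, pooled over several plants, gave 1 small RNA library and 1 degradome library per line. No replicate was made, so every test below compares the reads of 2 libraries and not the lines, and intervals cover counting error only. The buds hold many stages and cell types, and fewer cells of a type cannot be told apart from less RNA per cell. No mRNA levels were measured in these tables, so the tissue was not checked against marker transcripts.

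In flowering plants HD-ZIP III proteins give the upper (adaxial) side of leaves and floral organs its identity, keep meristems active and pattern the vascular strands and, in Arabidopsis, the anther. miR165 and miR166 are abundant on the lower (abaxial) side, where they guide ARGONAUTE1 to a complementary site in the coding region of all these transcripts, and ARGONAUTE10 withholds miR166 from that use in the shoot meristem. A hairpin precursor yields the guide from its 3′ arm and a partner strand, called the other arm below, from its 5′ arm.

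The 2 guides are shown first because nearly all reads of the family fell on them, with a 1-base variant below them. Capitals mark the seed, bases 2 to 8 from the 5′ end.
ath-miR165a: tCGGACCAggcttcatccccc
ath-miR166a: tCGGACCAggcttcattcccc
gma-miR166a-3p_1ss21CT: tCGGACCAggcttcattccct
These 3 sequences shared the seed CGGACCA. With positions counted from 1 at the 5′ end, the miR166 guide differed from the miR165 guide by C17T alone, and the variant, which is named after a soybean (Glycine max) miRNA, differed from the miR166 guide by C21T alone. The miR165 guide is listed as ath-miR165a and ath-miR165b and the miR166 guide as ath-miR166a to ath-miR166g, so the reads cannot be divided among their hairpins.

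The other arms can tell some of the hairpins apart and are shown for that reason.
ath-MIR165a-p5: gGAATGTTgtctggatcgagg
ath-MIR165b-p5: gGAATGTTgtttggatcgagg
ath-MIR166b-p5: gGACTGTTgtctggctcgagg
ath-MIR166d-p5_1ss6AG: gGAATGTTgtctggctcgagg
ath-MIR166e-p5: gGAATGTTgtctggcacgagg
Of these, 4 had the seed GAATGTT and ath-MIR166b-p5 had GACTGTT. Read from ath-MIR166b-p5, ath-MIR166d-p5_1ss6AG differed by C4A alone. ath-MIR165b-p5 differed from ath-MIR165a-p5 by C11T. ath-MIR165a-p5, ath-MIR165b-p5 and ath-MIR166e-p5 each lay in 1 of the 9 listed Arabidopsis hairpins without a mismatch, the hairpin of its own name. ath-MIR166b-p5 lay without a mismatch in both MIR166a and MIR166b, so its name does not fix its source. ath-MIR166d-p5_1ss6AG matched none exactly. It was named for an A6G difference from MIR166d and was equally 1 base from MIR165a, MIR166a, MIR166b, MIR166c, MIR166e and MIR166g, so it was counted as a miR166 arm by its name only.

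The guides of B. juncea were placed by the authors on 9 hairpins of the Arabidopsis genome (build TAIR10), 113 to 186 nt long with folding energies between -66 and -39.7 kcal per mol. MIR166c and MIR166d lay 1848 bases apart on the forward strand of chromosome 5, and the other 7 hairpins were on chromosomes 1, 2, 3, 4 and 5. One hairpin of each family is printed to show how the arms sit, with the other arm and then the guide in capitals. MIR165a is at chr1:78910-79060 on the reverse strand, with its arms at bases 31 to 51 and 109 to 129, and MIR166b is at chr3:22922191-22922338 on the forward strand, with its arms at bases 22 to 42 and 111 to 131.
MIR165a: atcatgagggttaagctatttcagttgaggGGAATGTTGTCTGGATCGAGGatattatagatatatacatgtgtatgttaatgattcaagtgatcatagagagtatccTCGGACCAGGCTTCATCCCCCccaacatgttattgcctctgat
MIR166b: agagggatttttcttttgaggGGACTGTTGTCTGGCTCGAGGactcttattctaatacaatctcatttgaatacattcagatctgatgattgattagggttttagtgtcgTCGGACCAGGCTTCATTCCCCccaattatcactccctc
The arms were 57 bases apart in MIR165a and 68 in MIR166b. These are Arabidopsis letters, and B. juncea precursors were not analysed here.

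The miR165 and miR166 guides were among the most read miRNAs of the buds of both lines. ath-miR165a had 3961 raw reads in CMS buds, against 3476 in MF buds, which made it the third most read of the 248 sequences in CMS and the fifth in MF. ath-miR166a had 3218 raw reads in CMS buds, against 2889 in MF buds, the fifth and the seventh rank. The guides together held 97.3% of the family's reads in CMS and 96.9% in MF. The family took 7.03% of all miRNA reads in CMS (95% exact binomial interval 6.87 to 7.18) and 7.22% in MF (7.06 to 7.40), a difference that Fisher's exact test on the reads did not call (p = 0.0908). miR319a/b alone supplied most of the miRNA reads of both libraries, and with its reads left out the family took 23.8% in CMS (23.3 to 24.3) and 16.3% in MF (15.9 to 16.7).

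**Figure D1:**
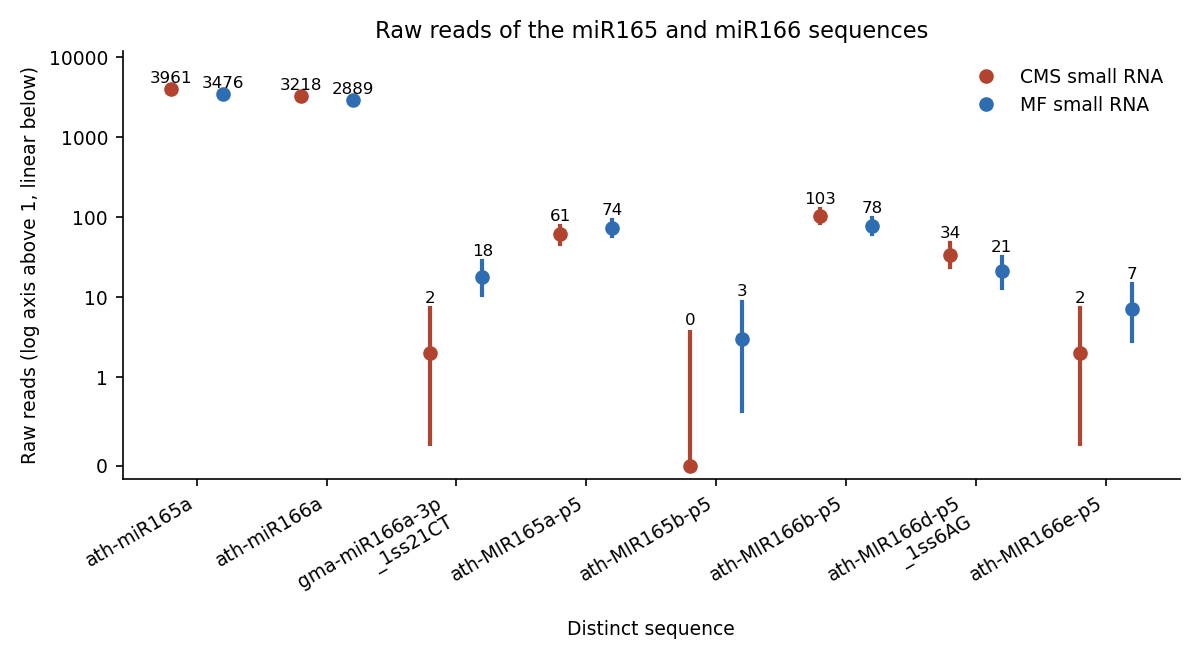
Raw reads of the 8 distinct miR165 and miR166 sequences in the CMS (red) and MF (blue) small RNA libraries, with 95% Poisson counting intervals, on an axis that is logarithmic above 1. ath-miR165a (3961 in CMS and 3476 in MF) and ath-miR166a (3218 in CMS and 2889 in MF) stand far above the other 6 sequences, none of which passed 103 reads.

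The libraries differed in depth and in quality. CMS had 3192676 mappable small RNA reads, 95.6% of its raw reads, and MF had 7331757, 61.9% of its raw reads. Reads without a 3′ adapter made up 2.61% of the raw reads in CMS and 13.3% in MF, and reads over 30 nt made up 1.14% in CMS and 22.2% in MF. The part of these differences in the ratios between the libraries was not tested.

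With the factors that the authors used to normalize the reads, 1.12 for CMS and 0.896 for MF, both guides were higher in CMS buds. The normalized value of ath-miR165a was 4420 in CMS and 3116 in MF, 1.42-fold higher in CMS (log2 ratio 0.50, 95% exact interval 0.44 to 0.57). That of ath-miR166a was 3591 in CMS and 2589 in MF, 1.39-fold higher in CMS (log2 ratio 0.47, 0.40 to 0.54). The intervals of the 2 guides overlapped. The 3 tests that the study names (Audic-Claverie, Fisher's exact and chi-squared) were run with its limit of 0.01, which was divided here by the 248 sequences for the Audic-Claverie value. So run, they called these 2 of the 8 sequences as higher in CMS and none as lower, where 5.24% of all 248 were called higher and 8.87% lower. With the limit undivided, ath-MIR166b-p5 was also called higher and gma-miR166a-3p_1ss21CT lower in CMS, where 7.26% of all were called higher and 10.9% lower.

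Other sequences moved further than the guides. Of the 86 sequences with at least 20 reads over both libraries and reads in each, 20 had a higher log2 ratio than ath-miR165a and 21 a higher one than ath-miR166a. Neither guide reached 1.5-fold, which 22.7% of the 88 sequences with at least 20 reads did. With the authors' factors the 95% interval lay wholly above equality for 4 of the 8 sequences, both guides, ath-MIR166b-p5 and ath-MIR166d-p5_1ss6AG. It did so for 22.7% of those 88, which leave out ath-MIR165b-p5 and ath-MIR166e-p5 because they had under 20 reads. The sequences next to ath-miR165a in summed normalized value were ath-miR160a, with a log2 ratio of -0.03 (-0.09 to 0.03), and ath-miR167a, with -2.85 (-2.96 to -2.75). The neighbours of ath-miR166a were ath-miR319c_L+1R-1, at 0.07 (-0.0028 to 0.14), and ppt-miR894_R+1, at 0.12 (0.03 to 0.21). Both guides were thus above their neighbours in ratio, by more than the counting intervals.

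**Figure D2:**
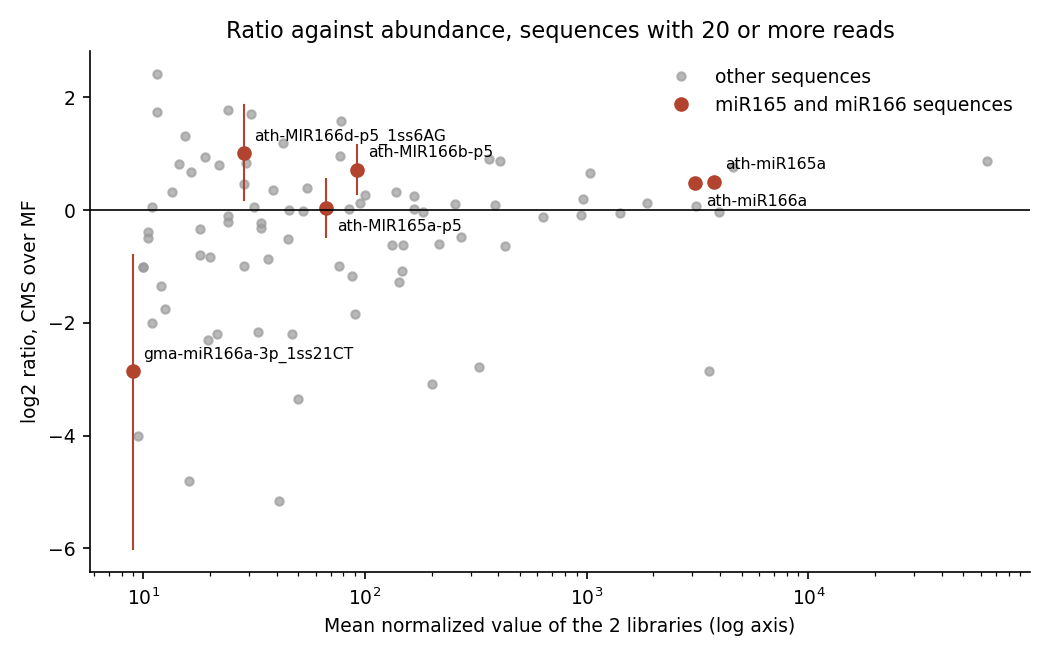
log2 ratio of CMS over MF against the mean normalized value for the sequences with at least 20 reads over both libraries and reads in each. The miR165 and miR166 sequences are in red with 95% counting intervals, and the others in grey. ath-miR165a (0.50) and ath-miR166a (0.47) sit close together at high abundance, while gma-miR166a-3p_1ss21CT (-2.85) lies low on the left.

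The sign of the guides' ratio depended on the scaling. Scaled by all reads of the listed miRNAs, a total that miR319a/b dominates, the log2 ratio became -0.020 (-0.086 to 0.046) for ath-miR165a and -0.053 (-0.13 to 0.020) for ath-miR166a, and neither was called. With miR319a/b left out of that total it was 0.57 and 0.53. Mappable reads gave 1.39 and 1.35, raw library reads 2.02 and 1.98. The median of the 86 sequences moved with each scaling, at -0.03 with the authors' factors, 0.85 with mappable reads, 1.48 with raw reads and -0.56 with all miRNA reads. A scaling adds the same amount to every log2 ratio, so the distance to that median, 0.54 for ath-miR165a and 0.51 for ath-miR166a, is fixed by arithmetic and is no sign of stability.

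**Figure D3:**
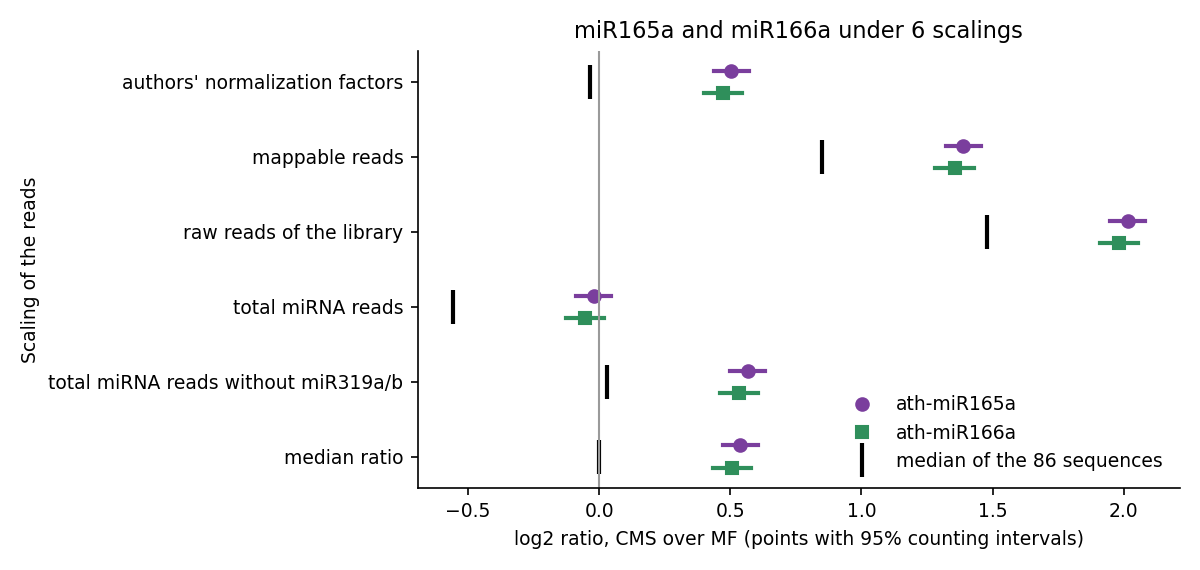
log2 ratio of CMS over MF for ath-miR165a (purple circles) and ath-miR166a (green squares) under 6 scalings of the reads, with 95% counting intervals, and the median of the 86 sequences with at least 20 reads (black bars). A scaling shifts guides and median by the same amount, and with total miRNA reads the intervals of both guides include 0.

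The balance between the guides was alike in the libraries and needed no scaling. The miR165 guide made up 55.2% of the reads of both guides in CMS (3961 of 7179, 54.0 to 56.3) and 54.6% in MF (3476 of 6365, 53.4 to 55.8). The shares differed by 0.564 percentage points, within their intervals (Fisher's exact test, p = 0.511).

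The other arms were rare in the buds of both lines. ath-MIR165a-p5 had 61 reads in CMS and 74 in MF, and ath-MIR165b-p5 had 0 reads in CMS and 3 in MF, which is no more than the floor of 3 counts in either and gives no fold. The miR165 arms together came to 1.54 reads per 100 guide reads in CMS (1.18 to 1.98) and 2.22 in MF (1.74 to 2.78), a lower ratio in CMS by Fisher's exact test (p = 0.0386). Without ath-MIR165b-p5 the value was 1.54 in CMS and 2.13 in MF, which the exact test did not call (p = 0.0676). The arms of miR166 were more abundant against their guide and were not called different. ath-MIR166b-p5 had 103 reads in CMS and 78 in MF, ath-MIR166d-p5_1ss6AG 34 in CMS and 21 in MF, and ath-MIR166e-p5 2 in CMS and 7 in MF. Together they came to 4.32 reads per 100 guide reads in CMS (3.62 to 5.12) and 3.67 in MF (2.99 to 4.45), by Fisher's exact test p = 0.216. Adjusted by Benjamini-Hochberg over these 2 comparisons, the exact p of the miR165 arms was 0.0773. Both sums rest on counting ath-MIR166d-p5_1ss6AG with miR166 by its name, although it is also 1 base from ath-MIR165a-p5. Counting it with miR165 was not tried.

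**Figure D4:**
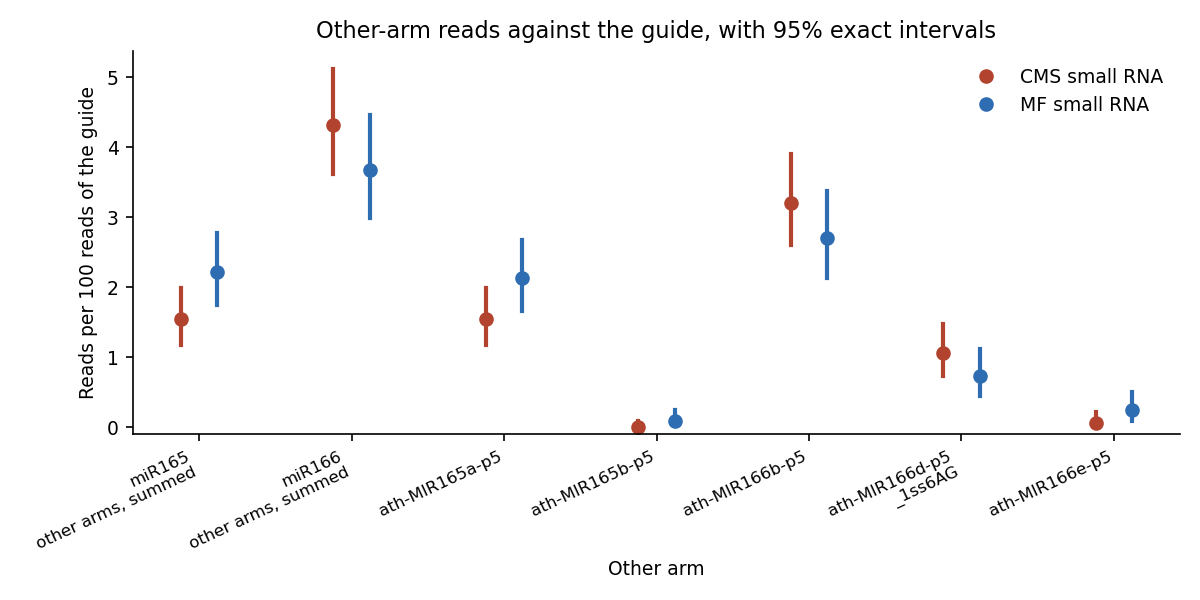
Reads of each other arm per 100 reads of its guide in CMS (red) and MF (blue), with 95% exact intervals. The summed miR165 arms are at 1.54 in CMS and 2.22 in MF, the summed miR166 arms at 4.32 in CMS and 3.67 in MF, and the intervals of the libraries overlap for every arm.

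With the authors' factors ath-MIR165a-p5 differed little between the libraries (log2 ratio 0.04, -0.48 to 0.55), while ath-MIR166b-p5 was 1.64-fold higher in CMS (0.72, 0.28 to 1.16) and ath-MIR166d-p5_1ss6AG 2.02-fold higher (1.01, 0.18 to 1.87). Neither miR166 arm was called with the divided limit. The Audic-Claverie value of ath-MIR166b-p5 was 0.00012, above the limit of 4.03e-05 that 248 sequences set, although its Fisher's exact p was 0.00116. These ratios also moved with the scaling. Scaled by all miRNA reads, that of ath-MIR166b-p5 was 0.19 (-0.25 to 0.64) and that of ath-MIR166d-p5_1ss6AG 0.49 (-0.34 to 1.34), and both intervals included equality. Scaled by mappable reads they were 1.60 and 1.89, and both arms were called.

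The variant of the miR166 guide went the other way. gma-miR166a-3p_1ss21CT had 2 reads in CMS and 18 in MF, a ratio of 0.138 with the authors' factors (log2 -2.85, -6.01 to -0.79). The log2 ratio was -3.38 (-6.53 to -1.32) with all miRNA reads. It was -1.97 (-5.12 to 0.09) with mappable reads and -1.34 (-4.49 to 0.72) with raw library reads, where both intervals included equality. Within each library it made up 0.0621% of its own reads and the guide's in CMS (0.00752 to 0.224) and 0.619% in MF (0.367 to 0.977), a lower share in CMS (Fisher's exact test, p = 0.000132). The same direction was seen for all 5 sequences that differed by 1 base from a sequence of at least 1000 reads and had under 0.1 times its reads, a set put together after the values were seen. ahy-miR167-5p_1ss21TC was at 0.258% in CMS and 1.26% in MF, ahy-miR159_1ss7TC at 0.117% in CMS and 0.973% in MF, and the 2 variants of miR319a at 0.0999% and 0.736% in CMS and 0.441% and 1.44% in MF. The part of library quality in these shares was not tested.

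The degradome, which sequences the 5′ ends of cut polyadenylated RNA, listed all 5 HD-ZIP III genes in both lines. Every one of the 10 guide and variant entries was listed on all 7 transcripts of these genes (CNA had 3), and no other miRNA was listed on them. Each gene had a single listed site, the same in CMS and MF, and in all 5 the cut lay at the nucleotide opposite base 10 of the guide. The program that finds the sites looks for cuts at that base of an aligned miRNA. The place of the cut was therefore fixed by the method and is not a result of these reads. On the Arabidopsis cDNA the site spanned nucleotides 1262 to 1282 of REV (cut at 1273), 870 to 890 of PHB (cut at 881), 795 to 815 of PHV (cut at 806), 1268 to 1288 of CNA (cut at 1279) and 934 to 954 of ATHB8 (cut at 945). In the Arabidopsis genome REV (AT5G60690) lies on chromosome 5 at 24397023 to 24402195, PHB (AT2G34710) on chromosome 2 at 14639323 to 14644273, PHV (AT1G30490) on chromosome 1 at 10796135 to 10800961, CNA (AT1G52150) on chromosome 1 at 19409711 to 19414678, and ATHB8 (AT4G32880) on chromosome 4 at 15863452 to 15868625. The letters of the sites were not read here, because no Arabidopsis cDNA was at hand.

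The base at position 17 changed how well each guide was scored against each gene. In the authors' alignment score, where lower is better paired, the miR165 guide scored 2.5 and the miR166 guide 3 on REV, PHB, PHV and ATHB8. On CNA the order was turned round, with 3.5 for the miR165 guide and 2.5 for the miR166 guide. The variant gma-miR166a-3p_1ss21CT scored as the miR166 guide did on all 5. The reads at a site are the same whichever guide is named, so the tables do not say which guide cut.

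Few cleavage reads stood behind these sites, and each gene had more of them in CMS. REV, which acts in meristems, organ polarity and the vasculature, had 12 reads in CMS and 2 in MF. PHB and PHV, a closely related pair that specifies the adaxial side, had 2 reads in CMS and 1 in MF (PHB) and 6 in CMS and 2 in MF (PHV). CNA, which acts in meristem size and vascular patterning, had 5 reads in CMS and 3 in MF. ATHB8, an early gene of vascular precursor cells, had 4 reads in CMS and 2 in MF. The CMS degradome had 4967302 mapped reads and the MF degradome 7717843, so the larger counts came from the shallower library. No mRNA levels of these genes were measured, so the part of transcript amount in the cleavage reads was not tested.

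Per 1000000 mapped reads REV stood at 2.42 in CMS and 0.259 in MF, a ratio of 9.32 with a 95% exact interval of 2.08 to 85.8. The ratios of the other genes were 4.66 for PHV (0.833 to 47.2), 3.11 for PHB (0.162 to 183) and for ATHB8 (0.445 to 34.4), and 2.59 for CNA (0.504 to 16.7), and all 4 intervals included equality. On this scale all 5 genes were at least 1.5-fold higher in CMS, where 55.2% of the 145 sites with reads in both libraries were. The interval lay above equality for 1 of the 5 genes, against 16.6% of those sites. The median log2 ratio of the 145 sites was 0.64, which is the offset that the division by mapped reads adds, and 4 of them had a larger ratio than REV. Scaled instead by the median ratio of the 32 sites with at least 20 reads, REV had a log2 ratio of 1.90 with an interval that included equality (-0.27 to 5.10), against 3.22 (1.05 to 6.42) per mapped read. On that scale the log2 ratio was 0.90 for PHV, 0.31 for PHB and ATHB8 and 0.047 for CNA, so that REV and PHV alone of the 5 were at least 1.5-fold higher, where 18.6% of the 145 sites were.

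The listed reads were not independent, because many of them hit several of the genes. Beside the reads, the authors listed the same reads divided by the number of transcripts that each one hit. Summed over the 7 transcripts these values came to exactly 17 in CMS and 4 in MF, while the listed reads of the 5 genes summed to 29 in CMS and 10 in MF. Under the assumption that these reads hit no other transcript, only 1 set of reads fitted both columns in each library. In CMS it was 11 reads of REV alone, 4 of PHV, CNA and ATHB8 together, 1 of PHB and PHV, and 1 of all genes but ATHB8. In MF it was 1 read of REV alone, 1 of PHV, CNA and ATHB8, 1 of CNA and ATHB8, and 1 of all genes but ATHB8. In neither library did PHB, PHV, CNA or ATHB8 have a read of its own. The reads of B. juncea were matched to Arabidopsis cDNA, so this split is among Arabidopsis transcripts and not among the gene copies of B. juncea. The separate listing of those 4 genes thus rests on 6 shared reads in CMS and 3 in MF.

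**Figure D5:**
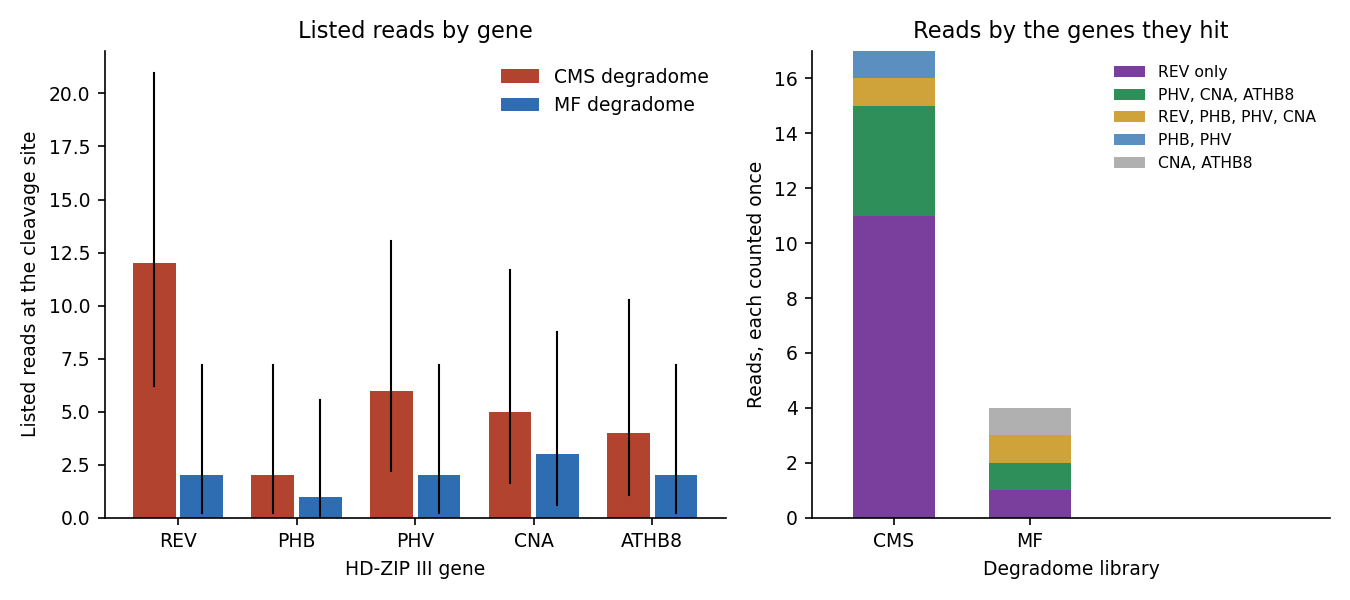
Left, reads listed at the cleavage site of each HD-ZIP III gene in the CMS (red) and MF (blue) degradomes, with 95% Poisson counting intervals. Right, the same reads counted once and coloured by the genes that they hit, 17 in CMS and 4 in MF, of which 11 in CMS and 1 in MF belong to REV alone.

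Counted once, the reads of the family were 6.60-fold higher in CMS per mapped read (2.15 to 27.0). The reads of REV alone were 17.1-fold higher (11 in CMS and 1 in MF, 2.48 to 736), and the shared reads were 3.11-fold higher with an interval that included equality (0.664 to 19.2). REV alone made up 64.7% of the reads in CMS (38.3 to 85.8) and 25% in MF (0.631 to 80.6), which 17 and 4 reads could not tell apart (Fisher's exact test, p = 0.272). With the median ratio of well-read sites as the scale, the log2 ratio was 1.40 for all the reads counted once (-0.22 to 3.43) and 2.77 for those of REV alone (-0.013 to 8.20), and both intervals included equality. Counting each read once was chosen after the values were seen.

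None of the 5 sites was a dominant cut of its transcript. CleaveLand, the program that finds the sites, gives category 0 or 1 to a position with the highest reads on its transcript, 2 to one above the transcript's median, 3 to one at or below it and 4 to a single read. REV and CNA were in category 2 in both libraries, PHV and ATHB8 in 2 in CMS and 3 in MF, and PHB in 3 in CMS and 4 in MF. Categories 0 and 1, which none of them reached, held 21.4% of the 145 sites in CMS and 17.2% in MF. For the miR166 guide the CleaveLand p-value was under 0.05 for PHB in CMS (0.0238) and for PHV and ATHB8 in MF (0.0297 each), and no gene passed in both libraries. Each of these was a category 3 site with 2 listed reads. REV in CMS, in category 2 with 12 listed reads, had a CleaveLand p-value of 0.121. PHV with 6 listed reads and ATHB8 with 4, in the same library, category and alignment score, had that same value. The p-value thus did not vary with the number of reads at these sites, and it cannot rank them by reads.

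A list of 20 other genes of organ polarity held the ZPR inhibitors of HD-ZIP III proteins, the KANADI and YABBY genes and AS1, AS2, ARF3, ARF4, AGO1 and AGO10. The degradome tables name only genes with a site matched to a miRNA, 446 in all, and 1 of the 20 was among them, from which nothing is read about the others. AGO1 (AT1G48410), which encodes the effector of miR165 and miR166, was listed under its own regulator miR168 with 2 reads in CMS and 1 in MF, in category 3 in CMS and 4 in MF.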

How the data were processed

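There were 4 libraries, a small RNA and a degradome library of the floral buds of each line. Samples were assigned from their deposited labels. For the small RNA, the authors trimmed and filtered the reads, compared them with miRBase and Arabidopsis (TAIR10 per the labels) and deposited a count of raw reads per miRNA. They also deposited a normalized value rounded to whole numbers, a score rather than a count, whose factors were recovered here by dividing the normalized value of miR319a, the most read sequence, by its raw reads. For the degradome, the authors ran CleaveLand on reads mapped to Arabidopsis cDNA and deposited a count of reads at each cleavage site, a signal made by dividing these reads by the transcripts hit, an alignment score, a category and a p-value. Their columns of log2 ratios and test results were not used.

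The tests of the study were run over all 248 distinct sequences on the normalized values with totals of 1000000, with an Audic-Claverie point probability under 0.01 divided by 248 and the Fisher's exact and chi-squared tests under 0.01. The Audic-Claverie value is a probability of the pair of counts, not a tail. Ratios of reads have exact conditional binomial 95% intervals and shares exact Clopper-Pearson ones, two-sided throughout. The floor was 3 counts per library. Reads carry no molecular identifiers. Depth per library is given in the report. Named sequences and genes were all members, all genes cut by them, a list of polarity genes and the sequences ranked next to each guide. The members and lists were chosen with earlier results of these data known. Alternatives were other scalings, limits, tests and ways of joining entries, arms, transcripts and shared reads. The calls, intervals and the split of shared reads were tested on simulated data. Computing was done with scipy 1.17.1 and numpy 2.4.6 under Python 3.11.15, and figures were drawn with matplotlib 3.10.9. No edgeR or DESeq2 fit was made, as there was no replicate.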

Additional observations from a re-analysis of the deposited data

How the results depend on the processing

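The log2 ratio of ath-miR165a was 1.39 with mappable reads, 2.02 with raw library reads and -0.020 with all miRNA reads, and that of ath-miR166a was 1.35, 1.98 and -0.053. The other 2 scalings left both within their intervals. The 2 called sequences became 4 with mappable reads, 5 with raw library reads and 0 with all miRNA reads. They became 4 with no division of the limit, 4 with adjusted Fisher p-values, 0 with a change of at least 1.5-fold as well and 9 as entries not joined. The difference in miR165 arms per 100 guide reads, -0.675 (CMS minus MF), was -0.589 for ath-MIR165a-p5 alone, -0.0863 for ath-MIR165b-p5 alone and -0.0892 over both families, none of them called by Fisher's exact test. For miR166 the difference of 0.650 turned to -0.180 for ath-MIR166e-p5 alone and -0.0892 over both families. With a CleaveLand p under 0.05, 1 gene was left in CMS and 2 in MF of the 5. The ratios of cleavage reads stayed within their intervals under every scaling, but with the median ratio of well-read sites the interval for REV also included equality (1.90, -0.27 to 5.10). Cause of these changes beyond the scaling itself was not tested. No paired analysis was possible because each group had 1 library. With 17 and 4 cleavage reads only large ratios could be told from equality.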

Other observations

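The cDNA of the MIR166F precursor (AT5G43603) was itself listed as a target in MF, cut under ath-MIR414-p5 at nucleotide 56 of 91 with 2 reads, category 1 and a CleaveLand p-value of 0.25, and it had no row in CMS. This feature lies outside the rule for named genes and was chosen after its values were seen.

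In 18 pairs of arms from other families, the arm taken as abundant had at least 100 reads in each library. It was the guide except where ath-MIR156b-p3 was paired with the guide ath-miR156a. The partner of the abundant arm held a median of 0.192% of the pair's reads in CMS (0 to 51.8%) and 0.887% in MF (0 to 47.8%). Its share was higher in CMS in 9 of the 18. The highest share in each library was that of ath-MIR168a-p3, which outnumbered ath-miR168a in CMS (162 reads against 151) but not in MF (170 against 186). Some of these pairs share a guide, so they are not independent.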
